A study of Rattus norvegicus with 20 samples.

Results

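The 7 mitochondrially encoded subunits of respiratory complex I were followed in Sprague-Dawley rats with injured or intact spinal cords, in a slow muscle of the lower hind limb that holds posture, the soleus. The members were taken by Ensembl identifier from a count table of 24613 genes: Mt-nd1 (ENSRNOG00000030644), Mt-nd2 (ENSRNOG00000031033), Mt-nd3 (ENSRNOG00000033615), Mt-nd4 (ENSRNOG00000029707), Mt-nd4l (ENSRNOG00000031053), Mt-nd5 (ENSRNOG00000029971) and Mt-nd6 (ENSRNOG00000029042). All 7 have a row, and 6 of them passed the filter on low counts. The exception was Mt-nd4.

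There were 5 groups of 4 libraries, each from soleus RNA enriched for poly-A tails. Swimming rats had a 25 g-cm contusion of the cord at T2, swam from 2.5 weeks after injury on 5 days a week for 10 weeks, and were sampled at 13.5 weeks. Walking rats had the same contusion and walked in shallow water on that schedule, also to 13.5 weeks. Transection rats had the cord cut completely at T2 and were sampled at 8.5 weeks without exercise. Contusion rats had the same contusion as the exercised groups, no exercise, and were sampled at 11.5 weeks. Uninjured rats had neither injury nor exercise and carry the label 11.5 weeks. According to the design text all animals were moved to very small cages after 4 days, so restricted movement is common to the 5 groups, and sampling time differs along with injury or exercise in most comparisons. The labels give neither age nor sex.

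Complex I takes electrons from NADH, passes them to ubiquinone and pumps protons across the inner mitochondrial membrane. Its catalytic arm is made of nuclear gene products, while the core of its membrane arm is encoded in the mitochondrial genome. That genome is transcribed from both strands into long precursor RNAs that are cut into the individual messengers. Slow muscle such as the soleus is rich in mitochondria. Since whole muscle was sequenced, a change in RNA per fibre and a change in the share of cells that carry many mitochondria cannot be told apart.

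Total counts ran from 21165832 to 39729930 per library, and depth was uneven between groups. Transection libraries held 31877886 to 36438046 counts and uninjured libraries 26195066 to 39729930. Contusion replicates 1 to 3 held 22394223 to 24747171 and replicate 4 held 35986860. Walking replicates 1 to 3 held 21445449 to 23665744 and replicate 4 held 36604027. Swimming libraries held 21165832 to 30649862. The summed counts of the 7 members made up between 2.24% and 7.73% of a library, and counting error on that share was at most 0.00906 percentage points either way (95% Wilson interval, which covers counting error only). Mt-nd4 added only 28 counts over all 20 libraries, so the sum is in effect that of 6 members. It does not measure the Mt-nd4 messenger. Levels are written as CPM, counts brought to a common library size after TMM scaling, which corrects each library total for its make-up. Gene lengths were not used here, so levels are compared between groups and not between genes. Changes were tested with edgeR's quasi-likelihood test over 13398 genes with Benjamini-Hochberg adjustment, and a gene was called at an adjusted p below 0.05. Transection replicate 3 stood apart from the other libraries. It had the fewest genes with a count, 13837 against 15037 to 16103 elsewhere, and the lowest TMM factor, 0.711 against 0.771 to 1.18. Muscle markers could not be checked, because the identifiers in the table were not paired with gene names here.

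Complex I messengers took a larger part of the transcriptome after transection than in any other group. Their share of all counts was 3.27%, 3.35%, 3.19% and 3.32% in the swimming libraries and 3.61%, 3.06%, 3.56% and 4.00% in the walking libraries. It was 6.73%, 7.73%, 7.36% and 5.49% in the transection libraries, against 4.47%, 3.43%, 3.84% and 4.85% after contusion and 2.24%, 2.82%, 3.35% and 2.82% in uninjured muscle. The lowest transection library lay above every library of the other groups, and each contusion library lay above each uninjured library. Swimming and walking libraries overlapped each other, and uninjured replicate 3 reached the level of the swimming libraries. Contusion replicate 4 and walking replicate 4, the deepest libraries of their groups, also had the highest shares of those groups. In the swimming, transection and uninjured groups the deepest library did not have the highest share. Whether depth plays a part in the differences between groups was not tested.

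Group means of this share were 3.28 ± 0.0694% after swimming, 3.56 ± 0.384% after walking, 6.83 ± 0.981% after transection, 4.15 ± 0.634% after contusion and 2.81 ± 0.455% in uninjured muscle (SD, n = 4 each). The transection mean was 2.43 times the uninjured mean and 1.65 times the contusion mean. The contusion mean was 1.48 times the uninjured mean, and the swimming and walking means were 0.791 and 0.858 times the contusion mean. The swimming group had the narrowest spread of the 5. No p is given for this sum, since the members were chosen with results of these data known.

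**Figure D1:**
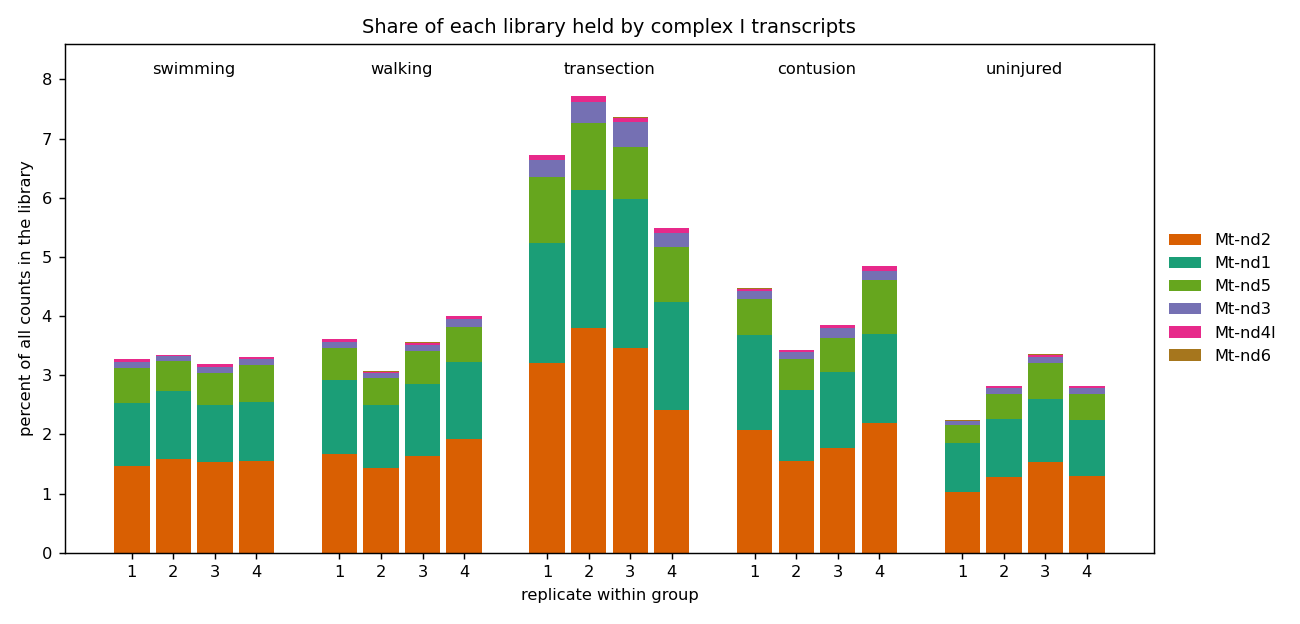
Percent of all counts of each library (y axis) held by each complex I messenger (stacked colours), for the 4 replicates of each group (x axis). The transection bars reach 5.49% to 7.73%, above all other libraries; Mt-nd6 is too small to be seen and Mt-nd4 is left out.

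Transection against uninjured muscle asks what the complete loss of descending input goes with. All 6 messengers tested rose, where 13.4% of all 13398 genes were called higher. Their log2 changes ran from 1.08 to 2.30 with a median of 1.63, while the median of all genes was 0.02. For 5 of the 6 every transection library lay above every uninjured library, which held upward for 13.5% of genes; the exception was Mt-nd6.

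Mt-nd3 showed the largest change of the 6. It encodes a small membrane subunit whose loop near the quinone site takes part in the switch between the active and the resting enzyme. Its level was 3163, 4558, 5966 and 2465 CPM in the transection libraries, against 550, 976, 845 and 902 CPM in the uninjured libraries. Even the lowest transection library was above the highest uninjured one. The log2 change was 2.30 (SE 0.26, edgeR adjusted p = 3.27e-06), and only 63 of the genes tested, or 0.470%, had a higher one. Replicate 3 held the highest of these values. Leaving it out gave a log2 change of 2.03 (edgeR adjusted p = 1.17e-05).

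Mt-nd1 encodes the subunit that joins the membrane arm to the catalytic arm and forms part of the quinone-binding site. It stood at 22316, 30330, 35454 and 19165 CPM after transection, against 7702, 9101, 9869 and 9657 CPM in uninjured muscle. The groups were far apart, with transection replicate 3 again the highest. Its log2 change was 1.56 (SE 0.19, edgeR adjusted p = 7.08e-06).

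Mt-nd2 and Mt-nd5 encode antiporter-like subunits that carry proton channels. For Mt-nd2 the transection libraries held 35326, 49279, 48735 and 25385 CPM, and the uninjured libraries 9567, 11951, 14017 and 13201 CPM. Its log2 change was 1.70 (SE 0.21, edgeR adjusted p = 7.70e-06). Mt-nd5, by contrast, was highest in transection replicate 2 and close to the group average in replicate 3. It had 12152, 14658, 12284 and 9757 CPM after transection, against 2810, 3846, 5588 and 4548 CPM in uninjured muscle. It changed by 1.54 on the log2 scale (SE 0.21, edgeR adjusted p = 2.03e-05). Neither gene overlapped between the groups.

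Mt-nd4l encodes a very small subunit in the stretch of the membrane arm between the quinone site and the first antiporter-like subunit. Transection libraries ran from 813 to 1337 CPM, against 113 to 414 CPM in uninjured libraries. The spread was wide in uninjured muscle, where replicate 1 at 113 CPM lay well below the next library at 304 CPM. The log2 change was 1.78 (SE 0.33, edgeR adjusted p = 6.37e-04).

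Mt-nd6 encodes a membrane subunit whose helix bends during the catalytic cycle. It is the only protein gene of the mitochondrial genome read from the opposite strand, and in human cells its messenger largely lacks the poly-A tail that these libraries select for. Only 507 to 2488 counts per library fell on it. Since the strand setting of the counting is not given, reads from its opposite strand cannot be told apart from its own. Its level was 67.7, 90.5, 81.9 and 38.5 CPM in the transection libraries, against 19.6, 33.6, 36.9 and 41.2 CPM in the uninjured libraries. Transection replicate 4 fell inside the uninjured range, and the other transection libraries stood above it. The log2 change of 1.08 (SE 0.31, edgeR adjusted p = 0.0146) was the smallest of the 6, and 589 genes, or 4.40%, had a higher one. The call was lost without transection replicate 2 (0.92, adjusted p = 0.0547), without uninjured replicate 1 (0.90, 0.0519) and with plain library totals (0.71, 0.0535). It was lost as well without both transection replicate 3 and swimming replicate 2 (0.97, 0.0502).

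For the other 5 members the call held under all 17 alternatives run. Without transection replicate 3 the log2 changes were 1.37 for Mt-nd1, 1.57 for Mt-nd2, 1.77 for Mt-nd4l, 1.51 for Mt-nd5 and 0.97 for Mt-nd6 (edgeR adjusted p = 0.0485 for Mt-nd6), and all 6 stayed called. With plain library totals the median log2 change over all genes was -0.32, against 0.02 with TMM, and 506 genes were called higher and 4188 lower, against 1789 higher and 1976 lower with TMM. The median log2 change of the 6 was 1.26 with library totals and 1.63 with TMM. Relative to the median of all genes it was 1.57 with library totals and 1.61 with TMM. Scaling shifts all genes nearly alike, so this relative value could hardly change. TMM factors were 0.711 to 0.953 in the transection libraries and 0.982 to 1.09 in the uninjured libraries. Scaling with the members left out gave the same median change of 1.63.

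**Figure D2:**
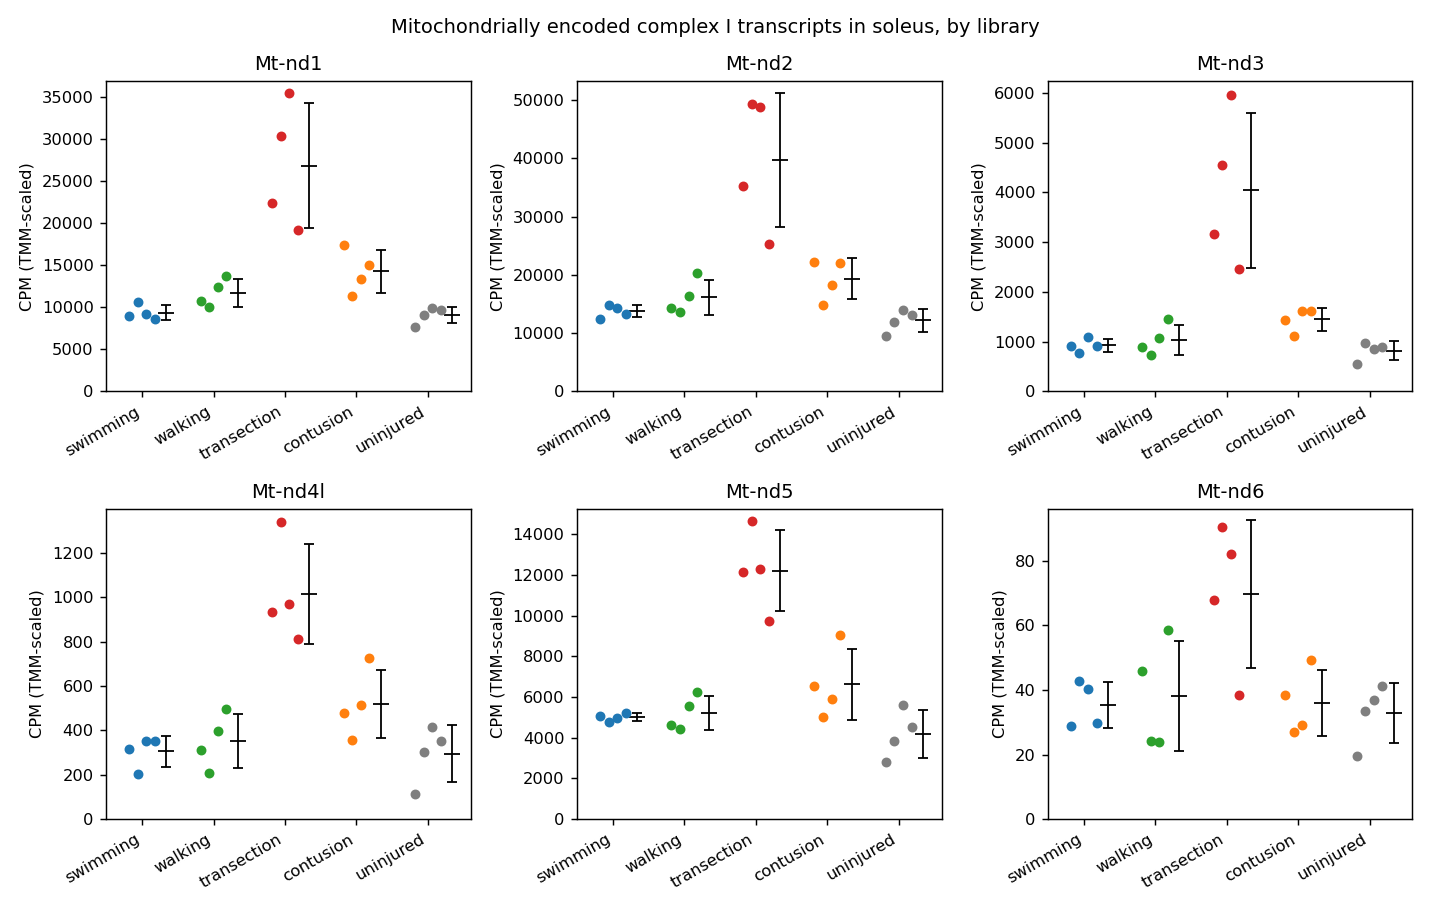
TMM-scaled CPM (y axis, from 0) of the 6 messengers that passed the filter, one point per library in replicate order, by group (x axis); the bar beside the points is the mean ± SD of 4 libraries. Transection libraries stand above all others for Mt-nd1, Mt-nd2, Mt-nd3, Mt-nd4l and Mt-nd5, and overlap them for Mt-nd6, where the lowest transection library is at 38.5 CPM.

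Mt-nd4 could not be described from this table. It encodes another antiporter-like subunit, and its reading frame shares a messenger with Mt-nd4l, which held 3188 to 36773 counts per library. The row for Mt-nd4 held 28 counts over all 20 libraries, at most 9 in one library. The counts were 0 in each swimming library, 1, 2, 0 and 0 in the walking libraries, 1, 9, 2 and 5 in the transection libraries, 0, 0, 1 and 6 after contusion and 0, 1, 0 and 0 in uninjured muscle. A count of 0 allows up to 0.0979 to 0.142 CPM of all counts in the swimming libraries (3 counts per library, counting error only). How reads were assigned where genes overlap or where near-identical copies exist was not given in the sources used here, and was not tested. These values are therefore not read as the level of the messenger, and no fold is given.

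Sedentary contusion against uninjured muscle compares an incomplete injury with none at the same labelled time. Complex I messengers were higher in the mean for all 6, by log2 values of 0.13 to 0.82 with a median of 0.66, and the median of all genes was 0.01. None passed, nor did any other gene (0 of 13398, or 0%, with edgeR; 99 genes with DESeq2 and 24 with voom). Without uninjured replicate 2 or 3, 14 and 15 genes passed, with no member among them. At an unadjusted p below 0.05 stood 5 of the 6, where 9.8% of all genes did; the exception was Mt-nd6.

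Mt-nd1 was the member nearest to the threshold. The contusion libraries held 17391, 11370, 13379 and 15045 CPM of it, all above the uninjured maximum of 9869 CPM. Its log2 difference of 0.65 (SE 0.19) did not pass (edgeR adjusted p = 0.204), while DESeq2 gave an adjusted p of 0.0493. Mt-nd3 had 1437, 1120, 1615 and 1615 CPM after contusion, likewise above the uninjured maximum of 976 CPM, and differed by 0.82 (SE 0.25, edgeR adjusted p = 0.226). Mt-nd2 was the third of the 3 genes without overlap, at 14874 to 22276 CPM after contusion against 9567 to 14017 CPM in uninjured muscle. Non-overlap upward was found in 3.58% of all genes.

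The remaining members overlapped between contusion and uninjured muscle. Mt-nd5 ran from 5002 to 9040 CPM after contusion and from 2810 to 5588 CPM in uninjured muscle. Mt-nd4l ran from 357 to 726 CPM after contusion and from 113 to 414 CPM in uninjured muscle. Mt-nd6 lay at 38.6, 27.1, 29.0 and 49.3 CPM after contusion, inside or near the uninjured range of 19.6 to 41.2 CPM. Its difference on the log2 scale was 0.13 (SE 0.31, edgeR adjusted p = 0.945).

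The injuries were also set against each other, at 8.5 weeks for transection and 11.5 weeks for contusion. All 6 messengers had a higher mean after transection than after contusion, and 5 of the 6 were called higher, where 6.07% of all genes were. Log2 changes ran from 0.88 to 1.48 with a median of 0.96, and the median of all genes was 0.01. Groups did not overlap for 5 members, which held upward for 9.24% of all genes. With library totals the median of the 6 was 0.69 and that of all genes was -0.23. Over all genes 218 were then called higher and 2292 lower, against 813 higher and 1239 lower with TMM.

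Mt-nd3 again changed most, by 1.48 (SE 0.25, edgeR adjusted p = 5.42e-04). Mt-nd2 changed by 1.04 (SE 0.20, adjusted p = 1.93e-03) and Mt-nd1 by 0.91 (SE 0.19, adjusted p = 2.63e-03) in the same test. Mt-nd5 changed by 0.88 (SE 0.20, edgeR adjusted p = 0.00583). These 4 were called under all 17 alternatives run for this comparison. Without transection replicate 3 they changed by 0.73 for Mt-nd1, 0.91 for Mt-nd2, 1.22 for Mt-nd3 and 0.87 for Mt-nd5.

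The other members of this comparison lay near the threshold. Mt-nd4l missed it (edgeR adjusted p = 0.0518) with a log2 difference of 0.96 (SE 0.33) and groups that did not overlap. It passed in 5 of 17 alternatives, which were without contusion replicate 4 (1.19, adjusted p = 0.0346), with the 2 groups alone (0.0123), with DESeq2 (0.0168), with voom (0.0150) and with a replicate block (0.0302). Mt-nd6 passed at 0.95 (SE 0.31, edgeR adjusted p = 0.0466) with overlapping groups, and was called in only 7 of 17 alternatives. Its call was lost without transection replicate 1, 2 or 3 (adjusted p = 0.0771, 0.138 and 0.130) and without contusion replicate 1, 2 or 3 (0.0792, 0.129 and 0.118). Library totals (0.0988), no low-count filter (0.0753), a replicate block (0.0619) and leaving out transection replicate 3 with swimming replicate 2 (0.127) ended it too.

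**Figure D3:**
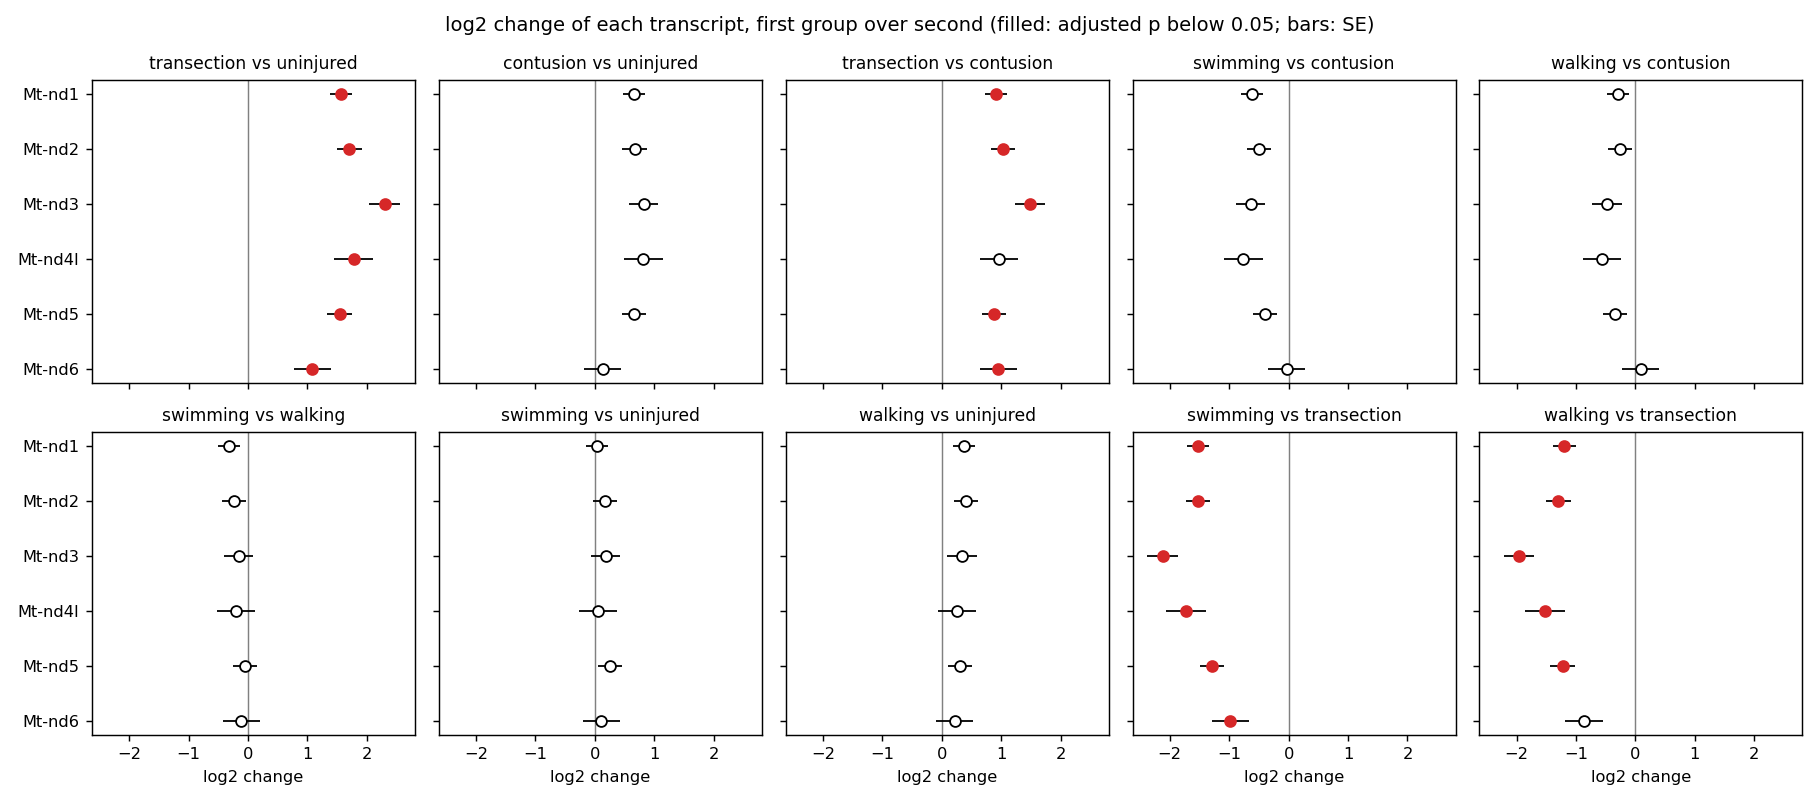
Log2 change (x axis) of each of the 6 messengers (y axis) in the 10 comparisons, first-named group over second, with the standard error as a bar. Filled points passed edgeR's adjusted p below 0.05 and open points did not; filled points occur only in the 4 comparisons that involve transection.

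Swimming after contusion was compared with contusion alone, which also differs by sampling time (13.5 and 11.5 weeks). None of the 6 passed, where 2.25% of all genes were called lower. All 6 had a lower mean with swimming, by log2 values of -0.76 to -0.03 with a median of -0.55, and the median of all genes was 0.01. At an unadjusted p below 0.05 stood 4 of the 6, where 22.6% of all genes did. The 600 genes called in either direction became 1, 65 and 54 without contusion replicate 1, 2 and 4, and 108 without swimming replicate 2.

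Mt-nd1 came nearest to the threshold. Its level was 8962, 10627, 9169 and 8604 CPM in the swimming libraries, against 17391, 11370, 13379 and 15045 CPM in the contusion libraries. Every swimming library lay below every contusion library, as was the case for 3 of the 6 members and, downward, for 6.81% of all genes. The log2 difference was -0.61 (SE 0.19) and missed the threshold in edgeR's quasi-likelihood test (adjusted p = 0.0605). It passed with DESeq2 (-0.60, 0.0163), with voom (-0.64, 0.0123) and with edgeR without transection replicate 3 and swimming replicate 2 (-0.70, 0.0314).

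Mt-nd3 had 916, 783, 1103 and 914 CPM with swimming, against 1437, 1120, 1615 and 1615 CPM after contusion. On the log2 scale it differed by -0.64 (SE 0.25, edgeR adjusted p = 0.135). Mt-nd4l ran from 205 to 353 CPM with swimming and from 357 to 726 CPM after contusion, and differed by -0.76 (SE 0.33, edgeR adjusted p = 0.174). These are the other two members without overlap. Mt-nd2 and Mt-nd5 overlapped, and Mt-nd6 differed least, at 28.8, 42.8, 40.2 and 29.6 CPM with swimming against 38.6, 27.1, 29.0 and 49.3 CPM after contusion.

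With library totals the median of all genes in this comparison was 0.19, the difference of Mt-nd6 turned to 0.15, and 280 genes were called higher and 19 lower, against 298 higher and 302 lower with TMM. The median log2 difference of the 6 was -0.55 with TMM and -0.37 with library totals. Relative to the median of all genes it was -0.56 under both scalings. Scaling shifts all genes nearly alike, so this relative value could hardly change.

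Shallow water walking against contusion alone gave 0 calls among the 6, and 0% of all genes were called (0 genes with edgeR, DESeq2 and voom; 3.18% of genes had an unadjusted p below 0.05, and none of the 6 did). Means were lower for 5 members, with log2 values from -0.56 to 0.09 over the 6 and a median of -0.32. Groups overlapped for each of the 6, while 2.93% of all genes had groups that did not. Mt-nd1 held 10724, 10025, 12379 and 13717 CPM after walking, against 17391, 11370, 13379 and 15045 CPM after contusion. Its log2 difference was -0.29 (SE 0.19, edgeR adjusted p = 1.00). Mt-nd3 held 893, 733, 1067 and 1452 CPM after walking and differed by -0.48 (SE 0.25) from contusion, which did not pass either.

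Swimming and walking, both sampled at 13.5 weeks, were not told apart by these genes. Differences ran from -0.33 for Mt-nd1 to -0.06 for Mt-nd5, swimming below walking in the mean for all 6, and none passed (edgeR adjusted p from 0.400 to 0.910; 0.00746% of all genes were called, which is 1 gene, against 298 genes without walking replicate 1 and 0 without walking replicate 4). All 6 overlapped, while 6.58% of all genes did not. Walking libraries were spread more widely than swimming libraries. For Mt-nd5 the level was 5013 ± 190 CPM after swimming and 5218 ± 836 CPM after walking (SD, n = 4 each), and for Mt-nd6 it was 35.3 ± 7.16 CPM after swimming and 38.2 ± 17.1 CPM after walking.

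Against uninjured muscle neither exercise group had a call among the 6, where 9.99% of all genes were called higher after swimming and 0.164% after walking. After swimming the 6 differed by log2 values of 0.04 to 0.26 (median 0.14), each of them overlapping where 11.5% of all genes did not overlap upward, and the median of all genes was 0.04. After walking they differed by 0.22 to 0.41 (median 0.33) beside a median of all genes of 0.02. Mt-nd1 alone did not overlap, at 10025 to 13717 CPM after walking against 7702 to 9869 CPM in uninjured muscle, and non-overlap upward was found in 4.41% of all genes. With library totals 1184 genes were called higher and 776 lower after swimming, against 1338 and 1347 with TMM, and 10 higher and 47 lower after walking, against 22 and 40 with TMM. The 2685 genes called after swimming in either direction became 1459 without uninjured replicate 4, and the 62 called after walking became 10, 5 and 30 without walking replicate 1, 3 and 4 and 14 and 7 without uninjured replicate 1 and 4.

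Set against transection, the exercised groups were lower. After swimming 6 of 6 members were called lower than after transection, where 13.8% of all genes were called lower, with log2 changes of -2.12 for Mt-nd3 to -0.98 for Mt-nd6. After walking 5 of 6 were called lower, where 8.96% of all genes were, with log2 changes of -1.96 for Mt-nd3 to -1.20 for Mt-nd1 among the called. Mt-nd6 differed by -0.86 (SE 0.31) there and missed the threshold (edgeR adjusted p = 0.0580). Leaving out walking replicate 4 (-1.15, 0.0191) or transection replicate 4 (-1.06, 0.0216) brought it past, as did DESeq2 (0.0267) and voom (0.00553). In the swimming comparison Mt-nd6 was called in 11 of 17 alternatives. The call was lost without swimming replicate 1 or 4 (adjusted p = 0.0671 and 0.0692) and without transection replicate 2 or 3 (0.0760 and 0.0722), without transection replicate 3 and swimming replicate 2 together (0.0666), and with library totals, where its log2 value was -0.53 (0.141). With library totals 4793 genes were called higher and 258 lower after swimming, against 2088 and 1845 with TMM, and 3364 higher and 223 lower after walking, against 1477 and 1201 with TMM. These comparisons differ in the kind of injury, exercise and time at once, and the 4 comparisons with transection share its 4 libraries.

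Across the 5 groups the order of mean levels was the same for Mt-nd1, Mt-nd2, Mt-nd3, Mt-nd4l and Mt-nd5: transection highest, then contusion, walking and swimming, with uninjured lowest. For Mt-nd1 the means were 9341 ± 889 CPM after swimming, 11711 ± 1662 after walking, 26816 ± 7433 after transection, 14296 ± 2552 after contusion and 9082 ± 975 in uninjured muscle (SD, n = 4 each). Transection and contusion were the only neighbours in this order that differed beyond their spread by the edgeR test, and for Mt-nd4l they did not pass. For Mt-nd6 the order was transection, walking, contusion, swimming and uninjured, and transection and walking, its first neighbours, did not pass the test.

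The make-up of the complex I counts, here those of the 6 members other than Mt-nd4, was compared as well, since it does not depend on library scaling. Of the summed counts Mt-nd3 made up 4.28%, 4.55%, 5.76% and 4.28% in the transection libraries. Its part was 2.65%, 3.72%, 2.75% and 3.14% in the uninjured libraries, so the groups did not overlap. Mean parts were 3.17 ± 0.488% with swimming, 2.96 ± 0.376% with walking, 4.72 ± 0.710% with transection, 3.45 ± 0.447% with contusion and 3.07 ± 0.487% without injury (SD, 4 libraries each). No other group overlapped with transection.

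Mt-nd6 was a smaller part of the sum after transection than in uninjured muscle, but not smaller than after contusion beyond overlap. It held 0.0915%, 0.0903%, 0.0792% and 0.0668% after transection, against 0.0945%, 0.128%, 0.120% and 0.144% in uninjured muscle, again without overlap. The contusion libraries, at 0.0801%, 0.0826%, 0.0729% and 0.102%, overlapped with transection. Mean parts were 0.120 ± 0.0181% with swimming, 0.0819 ± 0.0115% with transection, 0.0844 ± 0.0123% with contusion and 0.122 ± 0.0205% without injury (SD, 4 libraries each). All 4 swimming libraries lay above all contusion and transection libraries. Walking libraries were spread, at 0.148%, 0.0836%, 0.0665% and 0.139%. A smaller part did not mean a lower level of Mt-nd6. Its mean was 69.7 ± 22.8 CPM after transection and 32.8 ± 9.34 CPM in uninjured muscle. With swimming it was 35.3 ± 7.16 CPM, close to 36.0 ± 10.2 CPM after contusion (SD, 4 libraries each). The limits on poly-A tail and strand given above hold for these parts too.

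Exact two-sided permutation tests of these parts, 60 in all over 6 members and 10 comparisons, reached the smallest p that 4 against 4 libraries allow, 0.0286, in 7 cases. These were 4 for Mt-nd3 and 3 for Mt-nd6, and each had an adjusted p of 0.245. None passed, but 7 of 60 tests at this smallest p cannot pass after adjustment, however far apart the groups are. The adjusted values therefore decide nothing about these parts. Parts of one sum are also not independent of each other. The Mt-nd3 cases, and those of Mt-nd6 other than swimming against contusion, all share the 4 transection libraries, so they are not separate findings.

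**Figure D4:**
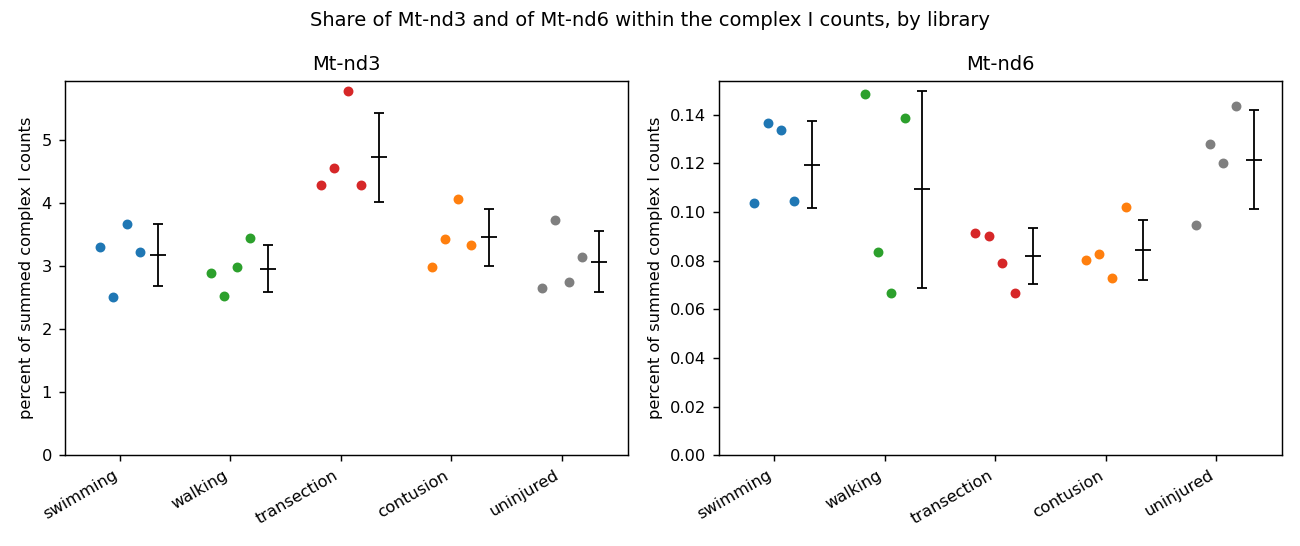
Percent of the summed complex I counts (y axis, from 0) held by Mt-nd3 and by Mt-nd6, one point per library in replicate order, by group (x axis), with mean ± SD of 4 libraries beside the points. Mt-nd3 is at 4.28% to 5.76% after transection, above every other library. Mt-nd6 is below 0.0945%, the lowest uninjured library, in every transection library and also in some contusion and walking libraries.

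Within groups the members varied together from library to library. Deviations of log2 CPM from the group mean correlated between members at 0.494 to 0.943 over 15 pairs (Pearson's r over 20 libraries, which share depth and scaling). The highest value was between Mt-nd1 and Mt-nd2 and the lowest between Mt-nd1 and Mt-nd4l. In 9 of 20 libraries all 6 lay on the same side of their group mean. Uninjured replicate 1 was the lowest of its group for all 6, with deviations of -1.24 to -0.23, and transection replicate 4 was the lowest of its group for each, with deviations of -0.78 to -0.29.

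Swimming replicate 2 showed the opposite of a common shift, with a deviation of 0.30 for Mt-nd6 and of -0.55 for Mt-nd4l. Walking replicate 3 was above its group mean for 5 members, while Mt-nd6 deviated by -0.57.

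**Figure D5:**
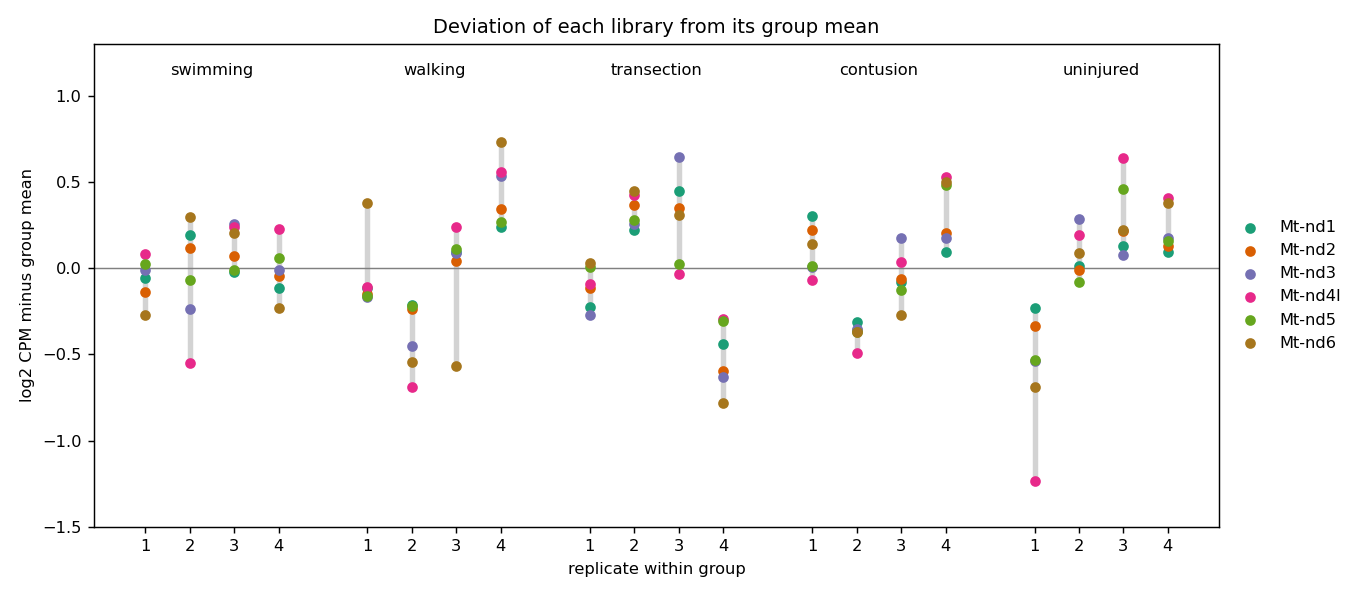
Deviation of log2 CPM from the group mean (y axis) for each of the 6 messengers (coloured points) in each library (x axis, replicates within groups); grey bars join the lowest and highest member. Uninjured replicate 1 and transection replicate 4 are low for all 6, and walking replicate 4 is high for all 6, by 0.24 to 0.73.

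Other genes followed the same pattern over the 20 libraries. Of 7099 other genes with a mean of at least 10 CPM, 14 correlated above 0.9 and 4 below -0.9 with the mean log2 CPM of the 6 members. The closest were ENSRNOG00000030700 (r = 0.968, and 0.845 within groups) and ENSRNOG00000031979 (r = 0.967, and 0.884 within groups). ENSRNOG00000030700 stood at 15348 ± 1440 CPM after swimming, 18214 ± 2660 after walking, 38452 ± 9278 after transection, 19694 ± 2547 after contusion and 14543 ± 1499 in uninjured muscle (SD, n = 4 each). The most opposite were ENSRNOG00000015177 (r = -0.941) and ENSRNOG00000011007 (r = -0.923), and ENSRNOG00000015177 had 59.4 ± 5.58 CPM after transection against 102 ± 11.3 CPM in uninjured muscle. No names were paired with these identifiers here.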

How the data were processed

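RNA sequencing counts of 20 soleus libraries were analysed. The deposited table holds raw whole-number counts per Ensembl gene. The submitters' processing notes list FastQC 0.10.1, HTSeq and rn6; libraries were stranded and poly-A enriched per the labels' protocols. The aligner, annotation and strand setting are not given in the sources used here.

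Of 24613 genes, 18618 had a count and 13398 passed filterByExpr (minimum count 10). All libraries entered a single edgeR 4.0.16 fit (R 4.3.3, TMM, robust quasi-likelihood, a mean per group, 15 residual degrees of freedom), adjusted over all genes by Benjamini-Hochberg at 0.05. Standard errors were derived from the log2 change and its F statistic. Parts of the complex I sum were compared with exact permutation tests (SciPy 1.17.1). DESeq2 1.42.0, voom in limma 3.58.1, other scalings, no filter, compared groups alone, a replicate block and left-out libraries were alternatives; scaling without the members, and leaving out libraries for the parts of the sum, were added after seeing the data. The fit was tested on simulated data.

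All 7 members are named. The other genes named are the 2 with the highest and the 2 with the lowest correlation with the members at a mean of at least 10 CPM. The members, lists and rule were chosen with earlier results of these data known. Lists of nuclear complex I genes, assembly factors, other mitochondrial genes and cell type markers could not be applied, since 0 of 47357 genes of the name table carry an Ensembl identifier; positions and sequences of the members were not used here. The design text speaks of tissue from each animal, but no label ties a library to an animal, so p-values measure the spread between these libraries. Replicate pairs within a group differed beyond counting error (chi-square per degree of freedom 26.5 to 517 over 30 pairs). The labels name no sequencing batch.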

Additional observations from a re-analysis of the deposited data

Results flagged for a closer look

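Among 65 groups of 4 values examined (CPM of the 6 members, their summed share and their parts of the complex I sum), 2 held a library far from the other libraries of its group, where chance gives about 3.25. Mt-nd1 made up 32.5% of the complex I counts in walking replicate 4, and the next lowest walking library was at 34.5%. Mt-nd4l made up 0.654% in swimming replicate 2, and the next lowest swimming library was at 1.14%.

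The effects of the injuries differed by the direct test of transection against contusion for 5 members. The log2 differences were 0.91 for Mt-nd1, 1.04 for Mt-nd2, 1.48 for Mt-nd3, 0.88 for Mt-nd5 and 0.95 for Mt-nd6 (edgeR adjusted p from 5.42e-04 to 0.0466). Mt-nd6 was called in only 7 of 17 alternatives and its groups overlapped. Mt-nd4l, whose groups did not overlap, missed the threshold narrowly (edgeR adjusted p = 0.0518). Sampling time differs between these groups as well and cannot be told apart from the injury.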

How the results depend on the processing

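The number of members called stayed within 1.5 times its value in 163 alternatives over the 10 comparisons and left it in 4. These were 1 call in place of 0 for contusion against uninjured with DESeq2, and 1 in place of 0 for swimming against contusion with DESeq2, with voom and without transection replicate 3 and swimming replicate 2. The 1.5-fold rule is loose. In comparisons without a call it says only that 0 stayed 0, and where 5 or 6 were called it allows 4 to 6. For single members, 20 alternatives lost a call, 13 gained one, 33 turned the sign and 936 did none of these. With a library left out, 5 to 6 members were called for transection against uninjured, 4 to 6 for transection against contusion, 5 to 6 for swimming and for walking against transection, and 0 elsewhere. With the replicate block the numbers were 6, 5, 6 and 5 in the order just given and 0 elsewhere; under it Mt-nd4l passed (adjusted p = 0.0302) and Mt-nd6 did not (0.0619) for transection against contusion, and no other call of a member changed. Replicate numbers gave no clear sign of pairing the libraries, which does not exclude that some were paired. Deviations of same-numbered libraries correlated at -0.286 to 0.428 over 40 pairs, with a median of 0.00334 and 8 pairs over 0.1. Pairs with another number had a median of -0.0145, and 4 of 20 libraries were most like one of their own number. Without the low-count filter the Mt-nd4 row passed for transection against uninjured (adjusted p = 0.0394) and for swimming against transection (0.0185) on 28 counts in all.

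Signs turned only for uncalled differences. With library totals Mt-nd6 stood at 0.15 for swimming against contusion and Mt-nd5 at 0.062 for swimming against walking. With voom Mt-nd6 stood at -0.18 for walking against contusion, 0.045 for swimming against walking, -0.066 for swimming against uninjured and -0.11 for walking against uninjured, and Mt-nd1 at -0.014 for swimming against uninjured. Without transection replicate 3 and swimming replicate 2, Mt-nd1 and Mt-nd6 stood at -0.056 and -0.03 for swimming against uninjured. With 1 library or those 2 left out, Mt-nd6 ran from -0.16 to 0.19 for swimming against contusion, -0.078 to 0.23 for swimming against uninjured, -0.20 to 0.29 for walking against contusion, -0.28 to 0.17 for swimming against walking, -0.066 to 0.39 for walking against uninjured and -0.081 to 0.26 for contusion against uninjured. Mt-nd4l ran from -0.22 to 0.26 for swimming against uninjured, -0.39 to 0.0041 for swimming against walking and -0.017 to 0.46 for walking against uninjured. Mt-nd1 ran from -0.056 to 0.085 for swimming against uninjured, Mt-nd3 from -0.29 to 0.049 and Mt-nd5 from -0.13 to 0.038 for swimming against walking. The cause was not tested.

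Without Mt-nd2, the member with the most counts, the share of all counts was 1.75% (swimming), 1.89% (walking), 3.60% (transection), 2.25% (contusion) and 1.52% (uninjured). As a percent of the counts of other genes the swimming share was 3.39%. With a library left out the share ran from 3.26% to 3.31% (swimming), 3.41% to 3.72% (walking), 6.53% to 7.27% (transection), 3.91% to 4.39% (contusion) and 2.63% to 3.00% (uninjured).

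Over all genes, calls depended on the tool. Contusion against uninjured gave 0 genes with the test used, 1 with the replicate block, 12 with library totals, 28 with the compared groups alone, 24 with voom and 99 with DESeq2. Swimming against contusion gave 600, and 343, 299, 322, 1755 and 1203 in that order of alternatives, with 317 without the low-count filter. Swimming against walking gave 1, against 0 with the compared groups alone, 312 with voom and 140 with DESeq2. Walking against uninjured gave 62, against 41 with no filter on low counts, 142 on the groups compared alone, 388 with voom and 375 with DESeq2, and swimming against transection gave 3933, against 2309 with the compared groups alone.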
